A study of Mus musculus with 15 samples.

Results

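The transcripts described here are those of amino acid transporters in lung basophils, natural helper cells and eosinophils of naive and papain-treated mice. Members were all rows of the expression table whose gene symbol belongs to the solute carrier families SLC1, SLC3, SLC6, SLC7, SLC36, SLC38 or SLC43, whatever their level. The rule took 62 of 21110 rows, with 7 from SLC1, 2 from SLC3, 19 from SLC6, 16 from SLC7, 4 from SLC36, 11 from SLC38 and 3 from SLC43. It also took Slc7a6os, a gene on the opposite strand beside Slc7a6 that encodes no transporter of the family, and Slc43a3, whose human counterpart carries purine nucleobases.

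Amino acids cannot cross the plasma membrane unaided, and a cell takes them up through carriers with overlapping substrates. Many SLC7 proteins are light chains that reach the surface only when bound to a heavy chain, above all Slc3a2 (CD98 heavy chain), and they swap 1 amino acid for another. SLC1 and SLC38 proteins use the sodium gradient to bring in glutamate, glutamine and small neutral amino acids, SLC36 proteins are coupled to protons, and SLC6 includes carriers of taurine, creatine, glycine and the monoamine serotonin. In immune cells the CD98 carriers and the glutamine carrier Slc1a5 are known for feeding growth and the kinase mTORC1, cationic carriers supply arginine to arginase and nitric oxide synthase, and cystine taken up by Slc7a11 feeds glutathione synthesis.

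RNA was sequenced in 15 libraries of cells sorted from the lungs of C57BL6/J mice, in 8 groups. The papain groups received 50 ug of papain per mouse, a plant protease used as an airway allergen, into the nose on 3 consecutive days. They were basophils (2 libraries), CD11c-positive eosinophils (2), CD11c-negative eosinophils (2), natural helper cells (2) and natural helper cells labelled 3'UTRKO (1 library, with the altered gene not named in the labels). The naive groups were basophils, natural helper cells (now called group 2 innate lymphoid cells) and eosinophils, with 2 libraries each. Basophils were gated as FceR1+ CD49b+ c-kit-, natural helper cells as lineage-negative Thy1.2+ IL7Ra+ CD25+, and eosinophils as SiglecF+ Gr1lo cells without autofluorescence. No label says whether the libraries of a group came from separate mice, so the p-values measure the spread between these libraries, which may be technical.

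Values are FPKM (fragment counts divided by transcript length and sequencing depth) rounded to whole numbers, and their sum was 374841 to 570208 per library. Read depth behind a value is unknown, and a difference between 0 and 1 FPKM can come from rounding. Defining markers were high in natural helper cells, where Gata3 was 168 to 273 FPKM and Thy1 172 to 250 FPKM. The T cell gene Cd3g was also 78 to 131 FPKM there, although that gate is lineage-negative. In naive basophils the receptor chain Fcer1a was 141 and 194 FPKM. Papain basophils had 23 and 18 FPKM of Fcer1a. In eosinophils Siglec5, the table's symbol for the Siglec-F gene, was 63 to 102 FPKM, and the 11 eosinophil markers summed to 766 to 3044 FPKM. Among them Ccr3 had 124 to 229 FPKM and Prg2 86 to 1519 FPKM, while Il5ra had 2 to 16 FPKM and Prg3 0 to 63 FPKM. The eosinophil peroxidase gene Epx was listed at 0 in 4 of 6 libraries, with 5 FPKM in CD11c-negative library 1 and 72 FPKM in naive library 2. The 8 neutrophil markers summed to 6514 to 16651 FPKM in the eosinophil libraries, where Retnlg had 3449 to 13759 FPKM and Camp 0 to 27 FPKM. The word "eosinophils" below therefore means the sorted gate.

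The transcription factor ATF4 raises many amino acid carriers when amino acids run short, through an element with the core TGATGNAA. That core was searched on both strands in promoter windows from 250 bases before to 50 bases after the annotated start (RefSeq, build GRCm38.p6, while the expression table uses mm9). Windows were at hand for 44 of the 62 members, and 3 of them held the core, Slc7a11, Slc7a7 and Slc1a4, against 4.51% of all 27025 genes with a window. Among genes of a list of known ATF4 targets, 9 of 23 held it. The matches are printed because Slc7a11, with a core on each strand, is the member on which several results below turn; capitals mark the core, and each is written 5′ to 3′ on the gene's strand. All 3 genes lie on the minus strand. Slc1a4 and Slc7a7 are named here for the match, and a match is a description of letters only.
Slc7a11, chr3:50443661-50443690, core beginning 66 bases before the start: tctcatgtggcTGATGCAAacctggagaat
Slc7a11, chr3:50443642-50443671, core on the other strand: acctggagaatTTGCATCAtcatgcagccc
Slc1a4, chr11:20332699-20332728, core on the other strand: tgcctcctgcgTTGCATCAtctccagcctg
Slc7a7, chr14:54417927-54417956: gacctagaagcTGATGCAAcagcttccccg
Slc7a7, chr14:54418067-54418096: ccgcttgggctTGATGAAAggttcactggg

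Of the 62 members, 45 reached 1 FPKM in at least 2 libraries and were tested, 72.6% against 67.5% of all genes. The tested members were 5 of SLC1, 1 of SLC3, 11 of SLC6, 12 of SLC7, 4 of SLC36, 9 of SLC38 and 3 of SLC43. Among the 17 others, 12 were listed at 0 in every library and 5 had at most 2 FPKM in any library. A group mean of 5 FPKM or more was reached by 25 members, and 20 FPKM or more by 15. The remaining 20 tested members had group means under 5 FPKM throughout. Slc3a2 was the highest member in every basophil and natural helper cell library, at 80 to 180 FPKM. In eosinophils the highest was Slc7a11 in both naive libraries and Slc7a8 in all 4 papain libraries. In CD11c-negative library 1 Slc7a8 and Slc7a11 were almost level, at 99 and 98 FPKM. Between 12 and 23 members reached 5 FPKM in a library, with 20 and 23 in papain basophils and 17 and 16 in naive basophils.

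**Figure D1:**
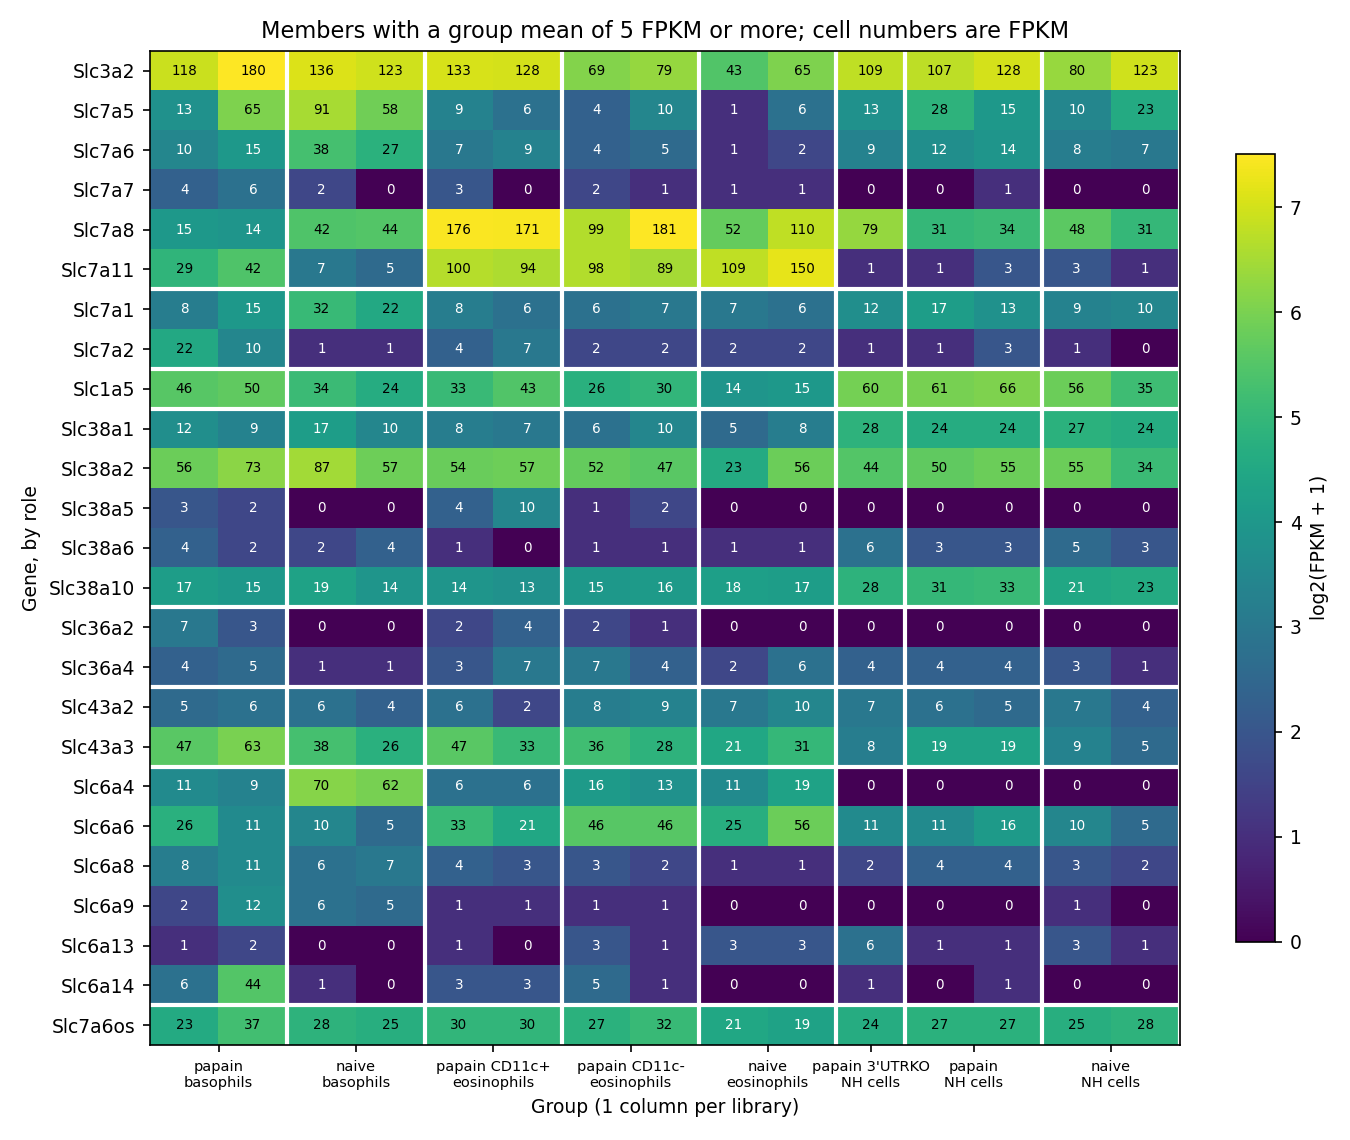
Levels of the 25 members with a group mean of 5 FPKM or more, grouped by role. Each column is 1 library, colour is log2(FPKM + 1) and the number in each cell is FPKM; Slc3a2 is high in every library, Slc7a11 in eosinophils, and Slc6a4 is highest in naive basophils and at 0 in natural helper cells.

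The 3 naive cell types differed in the levels of some CD98 light chains, and the heavy chain was present in all 3 and lowest in eosinophils. Slc3a2 had 136 and 123 FPKM in naive basophils, 80 and 123 FPKM in naive natural helper cells, and 43 and 65 FPKM in naive eosinophils. It was higher in basophils than in eosinophils by 1.27 ± 0.28 on the log2(FPKM + 1) scale (SE, adjusted p = 0.0177, limma with Benjamini-Hochberg adjustment over all genes tested) and higher in natural helper cells than in eosinophils by 0.90 ± 0.28 (adjusted p = 0.0429). The first call was lost without either basophil library or eosinophil library 1 (adjusted p up to 0.133), and the second without eosinophil library 1 or natural helper cell library 2 (adjusted p up to 0.258, with the value down to 0.59) and with median-ratio scaling (adjusted p = 0.0762). Basophils and natural helper cells overlapped. All log2 differences below are on this scale with their SE, which understates the change of genes with low values.

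Slc7a11, the cystine and glutamate exchanger, was the light chain that set naive eosinophils apart. It had 7 and 5 FPKM in naive basophils, 3 and 1 FPKM in naive natural helper cells, and 109 and 150 FPKM in naive eosinophils. The eosinophil libraries lay above all others, and the log2 difference was -4.22 ± 0.41 for basophils over eosinophils (adjusted p = 0.000321) and -5.51 ± 0.41 for natural helper cells over eosinophils (adjusted p = 3.32e-05). Both calls held when any 1 library was left out.

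Markers of other cells stood beside the basophil and natural helper cell values that follow. The 5 mast cell markers tested summed to 294 and 358 FPKM in naive basophils, 81 and 92 FPKM in naive natural helper cells, where Kit made up all of it, and 31 and 36 FPKM in naive eosinophils. Of them 4 were higher and 1 lower in basophils than in natural helper cells, and 2 higher and 1 lower than in eosinophils. Among the mast cell proteases Cma1 had 90 and 94 FPKM and Mcpt4 105 and 153 FPKM in naive basophils, and both were at 0 in naive natural helper cells. The 8 B cell markers summed to 185 and 339 FPKM in naive basophils, 6 and 4 FPKM in naive natural helper cells, and 52 and 40 FPKM in naive eosinophils, with 7 higher in basophils than in natural helper cells and 2 higher than in eosinophils. The 8 T cell markers summed to 342 and 365 FPKM in naive natural helper cells. Their sums were 82 and 27 FPKM in naive basophils and 2 and 1 FPKM in naive eosinophils. The 8 fibroblast markers summed to 480 and 337 FPKM in naive natural helper cells. Those sums were 52 and 5 FPKM in naive basophils and 7 and 25 FPKM in naive eosinophils. The part of all these markers in the basophil and natural helper cell values was not tested.

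Naive basophils were highest in Slc7a6, a light chain that exchanges cationic for neutral amino acids, and high in Slc7a5, the carrier of leucine and other large neutral amino acids. Slc7a6 had 38 and 27 FPKM in naive basophils, 8 and 7 FPKM in naive natural helper cells, and 1 and 2 FPKM in naive eosinophils, with no overlap between any of the 3. Each step passed the test, at 1.96 ± 0.29 for basophils over natural helper cells (adjusted p = 0.00209), 3.75 ± 0.29 for basophils over eosinophils (adjusted p = 0.000108) and 1.79 ± 0.29 for natural helper cells over eosinophils (adjusted p = 0.00199), and held when any 1 library was left out. Slc7a5 had 91 and 58 FPKM in naive basophils, 10 and 23 FPKM in naive natural helper cells, and 1 and 6 FPKM in naive eosinophils. Basophils exceeded eosinophils by 4.30 ± 0.84 (adjusted p = 0.00999), a call lost without basophil library 1 or eosinophil library 1 (adjusted p up to 0.0827). The other 2 steps did not pass, at 2.18 ± 0.84 for basophils over natural helper cells (adjusted p = 0.102) and 2.12 ± 0.84 for natural helper cells over eosinophils (adjusted p = 0.0934). Slc7a8, which carries neutral amino acids of many sizes, had 42 and 44 FPKM in naive basophils, 48 and 31 FPKM in naive natural helper cells, and 52 and 110 FPKM in naive eosinophils. Its highest values were in eosinophils, and none of its 3 differences passed, though natural helper cells over eosinophils did with median-ratio scaling (adjusted p = 0.0359).

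Carriers that need no heavy chain also split by cell type. Slc7a1, in most cells the main carrier of arginine and lysine, had 32 and 22 FPKM in naive basophils, 9 and 10 FPKM in naive natural helper cells, and 7 and 6 FPKM in naive eosinophils. Basophils lay above both, by 1.39 ± 0.31 over natural helper cells (adjusted p = 0.0139) and by 1.88 ± 0.31 over eosinophils (adjusted p = 0.00411); the first was lost without basophil library 1 or either natural helper cell library (adjusted p up to 0.0763). Slc1a5, the exchanger of glutamine and small neutral amino acids, had 34 and 24 FPKM in naive basophils, 56 and 35 FPKM in naive natural helper cells, and 14 and 15 FPKM in naive eosinophils. It was higher in natural helper cells than in eosinophils by 1.55 ± 0.25 (adjusted p = 0.00195) and higher in basophils than in eosinophils by 0.93 ± 0.25 (adjusted p = 0.0391), where the second call was lost when any of its 4 libraries was left out (adjusted p up to 0.179). Slc38a1, a sodium-coupled glutamine carrier, had 17 and 10 FPKM in naive basophils, 27 and 24 FPKM in naive natural helper cells, and 5 and 8 FPKM in naive eosinophils. Natural helper cells exceeded eosinophils by 1.85 ± 0.32 (adjusted p = 0.00268). The related Slc38a2 had 87 and 57 FPKM in naive basophils, 55 and 34 FPKM in naive natural helper cells, and 23 and 56 FPKM in naive eosinophils, and no difference passed, though basophils over eosinophils did with median-ratio scaling (adjusted p = 0.0277) or quantile normalization (adjusted p = 0.0278), and basophils over natural helper cells with median-ratio scaling (adjusted p = 0.0413). Slc38a10 was close to level, at 14 to 23 FPKM in the 6 naive libraries.

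The SLC6 members gave the widest contrast between naive cell types. Slc6a4, the serotonin transporter, had 70 and 62 FPKM in naive basophils, was listed at 0 in both naive natural helper cell libraries, and had 11 and 19 FPKM in naive eosinophils. The 3 cell types did not overlap, and each difference passed the test and held when any 1 library was left out; basophils over eosinophils gave 2.11 ± 0.26 (adjusted p = 0.000931), and the adjusted p was 5.21e-06 for basophils and 2.02e-05 for eosinophils against natural helper cells. Slc6a6, the taurine transporter, had 10 and 5 FPKM in naive basophils, the same 10 and 5 FPKM in naive natural helper cells, and 25 and 56 FPKM in naive eosinophils. The difference from eosinophils was -2.24 ± 0.54 for each cell type (adjusted p = 0.0251 for basophils and 0.0136 for natural helper cells), and each call was lost without eosinophil library 2 or without library 2 of the other cell type (adjusted p up to 0.16 and 0.0961). Slc6a8, the creatine transporter, had 6 and 7 FPKM in naive basophils, 3 and 2 FPKM in naive natural helper cells, and 1 FPKM in both naive eosinophil libraries. Basophils exceeded natural helper cells by 1.11 ± 0.27 (adjusted p = 0.0198, up to 0.107 without library 2 of either cell type) and eosinophils by 1.90 ± 0.27 (adjusted p = 0.00169). Slc6a9, a glycine transporter, had 6 and 5 FPKM in naive basophils, 1 and 0 FPKM in naive natural helper cells, and was listed at 0 in naive eosinophils. Its calls for basophils over natural helper cells (2.20 ± 0.58, adjusted p = 0.0287) and over eosinophils (adjusted p = 0.0156) were each lost in at least 3 of the 4 fits without 1 library, those without either basophil library among them. Slc6a9 overlaps the protein-coding genes Ccdc24 and B4galt2 on the other strand, and reads of overlapping genes cannot be told apart without strand.

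Slc43a3 stood out as low in 1 cell type, with 38 and 26 FPKM in naive basophils, 9 and 5 FPKM in naive natural helper cells, and 21 and 31 FPKM in naive eosinophils. The difference was 2.07 ± 0.33 for basophils over natural helper cells (adjusted p = 0.00307) and -1.78 ± 0.33 for natural helper cells over eosinophils (adjusted p = 0.00385). Calls on low members were Slc6a13, a carrier of GABA and taurine (listed at 0 in naive basophils, 3 FPKM in both naive eosinophil libraries), Slc38a6 (5 and 3 FPKM in naive natural helper cells, 1 FPKM in both naive eosinophil libraries, adjusted p = 0.0453), Slc36a3 (1 FPKM in each naive basophil library, listed at 0 elsewhere) and Slc38a3 (1 FPKM in each naive natural helper cell library, listed at 0 elsewhere). The last 2 turn on a step of 1 FPKM in rounded values and reached the level for testing only through the group where they are high, so they had to differ and their calls support nothing, and the calls on Slc6a13 and Slc38a6 were lost when any 1 library was left out.

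**Figure D2:**
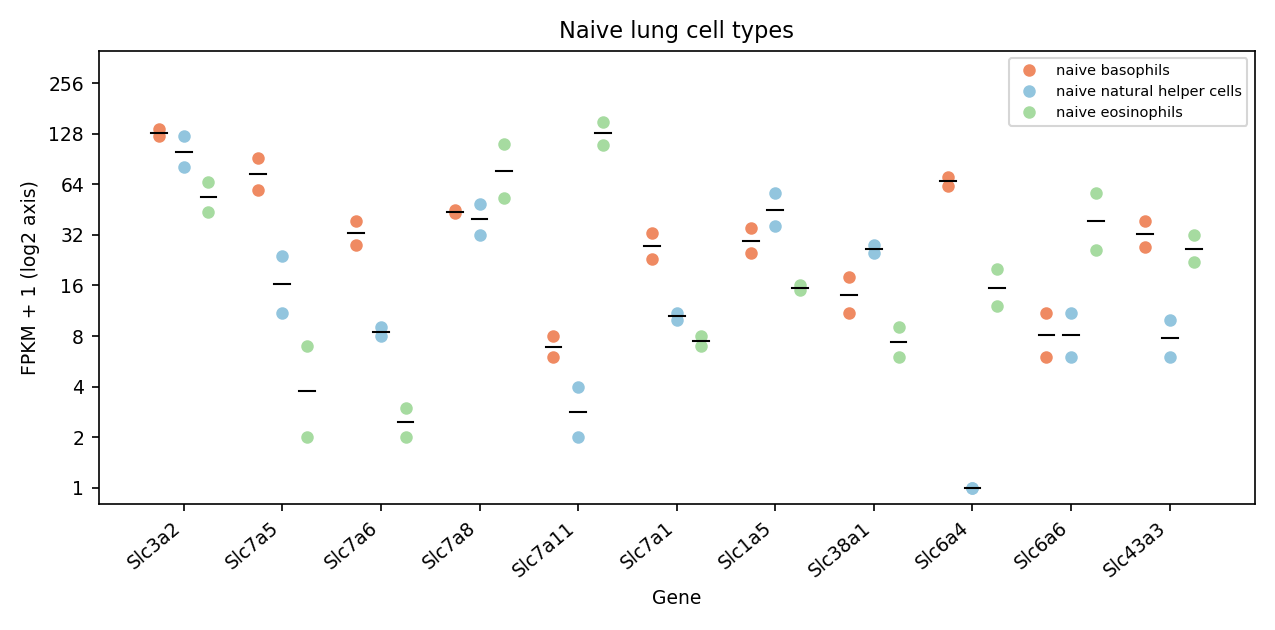
Levels of 11 members in naive basophils, natural helper cells and eosinophils, as FPKM + 1 on a log2 axis. Points are libraries (2 per cell type) and bars the mean of the log2 values; Slc7a11 is high only in the eosinophil points among these, Slc7a5, Slc7a6 and Slc6a4 are highest in basophils, and Slc6a4 sits at the floor of the axis in natural helper cells.

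In counts, 9 members were higher and 3 lower in naive basophils than in naive eosinophils, where 5.3% of all genes tested were higher and 8.66% lower. Against naive natural helper cells, 7 members were higher and 1 lower in naive basophils, with 6.96% and 13.6% of all genes. Naive natural helper cells had 6 members higher and 4 lower than naive eosinophils, with 16.5% and 11.6% of all genes. These counts include Slc36a3 and Slc38a3, which had to differ and whose calls support nothing. The median log2 difference of the 45 members was 0.00 in each of these 3 comparisons, beside 0.00, -0.34 and 0.21 over all genes. Fitted on the compared groups alone, the members called were 7, 5 and 7, in place of 12, 8 and 10, where 13.5%, 14.2% and 31.7% of all genes were called.

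With 1 spread per gene shared over all groups, the largest number of members called after papain was in basophils. Of the 45 members tested, 10 rose and 5 fell, against 22.1% of all genes higher and 3.88% lower, and the median log2 difference was 0.50 for the members and 0.50 for all genes. Of the 21 members with a mean of 5 FPKM or more in either group, 4 rose and 4 fell. Slc1a1 and Slc38a4 among those that rose reached 1 FPKM in 2 libraries only through papain basophils, and Slc36a3, among those that fell, only through naive basophils. They had to differ, and their calls support nothing. The libraries of the 2 states differed in much else. The 8 fibroblast markers summed to 4069 and 1575 FPKM in papain basophils, against 52 and 5 FPKM in naive basophils, and all 8 rose. The 12 epithelial markers summed to 21479 and 44196 FPKM in papain basophils, against 6797 and 8784 FPKM in naive basophils, and 9 rose; 7 of 9 endothelial and 4 of 8 neutrophil markers rose too. The alveolar macrophage markers summed to 11642 FPKM in papain library 1 and 301 FPKM in papain library 2, against 73 and 46 FPKM in naive basophils, and 3 of 8 rose. The 10 basophil markers summed to 712 and 1957 FPKM in papain basophils, against 6531 and 5643 FPKM in naive basophils, and 8 fell. The 5 mast cell markers tested summed to 153 and 4 FPKM in papain basophils, against 294 and 358 FPKM in naive basophils, and 1 fell, with a median log2 difference of -3.69. The 8 B cell markers summed to 109 and 36 FPKM in papain basophils, against 185 and 339 FPKM in naive basophils, and 2 fell, with a median of -1.54. Whether a member below changed in basophils or with the share of other cells was not tested, and fewer basophils and less RNA per basophil cannot be told apart in sorted bulk RNA.

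Among the CD98 carriers, papain basophils had more Slc7a11 and less Slc7a6 and Slc7a8. Slc7a11 had 29 and 42 FPKM in papain basophils, against 7 and 5 FPKM in naive basophils. The libraries did not overlap, and the rise of 2.37 ± 0.41 (adjusted p = 0.00478) held when any 1 library was left out. Slc7a6 had 10 and 15 FPKM in papain basophils, against 38 and 27 FPKM in naive basophils, a fall of -1.32 ± 0.29 (adjusted p = 0.0133). Slc7a8 had 15 and 14 FPKM in papain basophils, against 42 and 44 FPKM in naive basophils, a fall of -1.51 ± 0.38 (adjusted p = 0.0203). The Slc7a6 call was lost without papain or naive library 1 (adjusted p up to 0.0569), and the Slc7a8 call when any of the 4 libraries was left out (adjusted p up to 0.103), although the value stayed between -1.55 and -1.46. Slc7a5 had 13 and 65 FPKM in papain basophils, against 91 and 58 FPKM in naive basophils. Its papain libraries lay far apart and overlapped the naive ones, with a log2 difference of -1.28 ± 0.84 (adjusted p = 0.304). The heavy chain Slc3a2 had 118 and 180 FPKM in papain basophils, against 136 and 123 FPKM in naive basophils, and the groups overlapped (0.17 ± 0.28, adjusted p = 0.712). Slc7a7, a light chain that exports cationic amino acids and a gene that overlaps Oxa1l on the other strand, had 4 and 6 FPKM in papain basophils, against 2 and 0 FPKM in naive basophils (1.77 ± 0.69, adjusted p = 0.093).

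The 2 cationic carriers moved in opposite directions. Slc7a2, an arginine carrier known from activated macrophages, had 22 and 10 FPKM in papain basophils, against 1 FPKM in both naive libraries. That rise of 2.99 ± 0.49 (adjusted p = 0.00387) held when any 1 library was left out. Slc7a1 had 8 and 15 FPKM in papain basophils, against 32 and 22 FPKM in naive basophils, and no library overlapped. Its fall of -1.20 ± 0.31 (adjusted p = 0.0225) was lost without papain or naive library 1 (adjusted p up to 0.0956). Sums of macrophage markers were higher in the papain libraries, though few single markers passed. Monocyte and macrophage markers summed to 4795 and 1105 FPKM in papain basophils, against 726 and 157 FPKM in naive basophils (2 of 11 rose). Much of the difference in sums was Lyz2, with 4074 and 368 FPKM in papain basophils, against 429 and 77 FPKM in naive basophils. Cd14 was higher in papain library 2, at 397 and 588 FPKM. Papain library 1, with the higher sum, had 22 FPKM of Slc7a2 and papain library 2 had 10 FPKM. Papain library 1 also had the higher fibroblast, T cell, mast cell and natural helper cell sums, and the part of any of these cells in Slc7a2 was not tested.

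Slc6a4 fell furthest of the members with a mean of 5 FPKM or more. It had 11 and 9 FPKM in papain basophils, against 70 and 62 FPKM in naive basophils. The fall of -2.61 ± 0.26 (adjusted p = 0.000453) was called in every alternative fit run and when any 1 library was left out. The 10 basophil markers had a median log2 difference of -2.77 in the same comparison. Slc6a14, a carrier of neutral and cationic amino acids known from epithelia, had 6 and 44 FPKM in papain basophils, against 1 and 0 FPKM in naive basophils. The rise of 3.65 ± 0.83 (adjusted p = 0.0148) was lost without naive or papain library 2. Papain library 2, with 44 FPKM, had the higher epithelial sum, and also the higher endothelial, neutrophil and basophil sums. Slc6a6 had 26 and 11 FPKM in papain basophils, against 10 and 5 FPKM in naive basophils (1.15 ± 0.54, adjusted p = 0.153), and Slc6a8 had 8 and 11 FPKM in papain basophils, against 6 and 7 FPKM in naive basophils (0.47 ± 0.27, adjusted p = 0.23).

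Glutamine carriers of high level did not pass. Slc1a5 had 46 and 50 FPKM in papain basophils, against 34 and 24 FPKM in naive basophils, without overlap (0.73 ± 0.25, adjusted p = 0.0627). Slc38a2 had 56 and 73 FPKM in papain basophils, against 87 and 57 FPKM in naive basophils, and the groups overlapped. Slc38a1, with 12 and 9 FPKM in papain basophils, against 17 and 10 FPKM in naive basophils, gave -0.30 ± 0.32 (adjusted p = 0.52) and was called lower after median-ratio scaling or quantile normalization (adjusted p = 0.0487 and 0.0247). Slc43a3 had 47 and 63 FPKM in papain basophils, against 38 and 26 FPKM in naive basophils (0.77 ± 0.33, adjusted p = 0.119).

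Several carriers listed at 0 in both naive basophil libraries were present in the papain ones. The proton-coupled Slc36a2 had 7 and 3 FPKM (adjusted p = 0.00205), the glutamine carrier Slc38a5 3 and 2 FPKM (adjusted p = 0.00824), the glutamate carrier Slc1a3 2 and 1 FPKM (adjusted p = 0.00205) and the noradrenaline transporter Slc6a2 1 and 3 FPKM (adjusted p = 0.0323). The glutamate carrier Slc1a1, at 1 and 4 FPKM, and Slc38a4, at 1 FPKM in each papain library, are given as values only, since papain basophils alone brought them to the level for testing. Slc36a1, which works at lysosomes, had 5 and 3 FPKM in papain basophils, against 2 and 1 FPKM in naive basophils (1.00 ± 0.32, adjusted p = 0.0484), and its call was lost in 8 of the 9 alternative fits. Of these, Slc36a2 and Slc1a3 stayed called when any 1 library was left out. Slc38a5 lost its call without naive library 2, Slc36a1 without naive library 2 or papain library 1, and Slc6a2 in 3 of 4 such fits. Slc1a1 shares its position with 4430402I18Rik on the other strand. Slc36a3 was at 0 in both papain libraries, against 1 FPKM in both naive libraries.

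**Figure D3:**
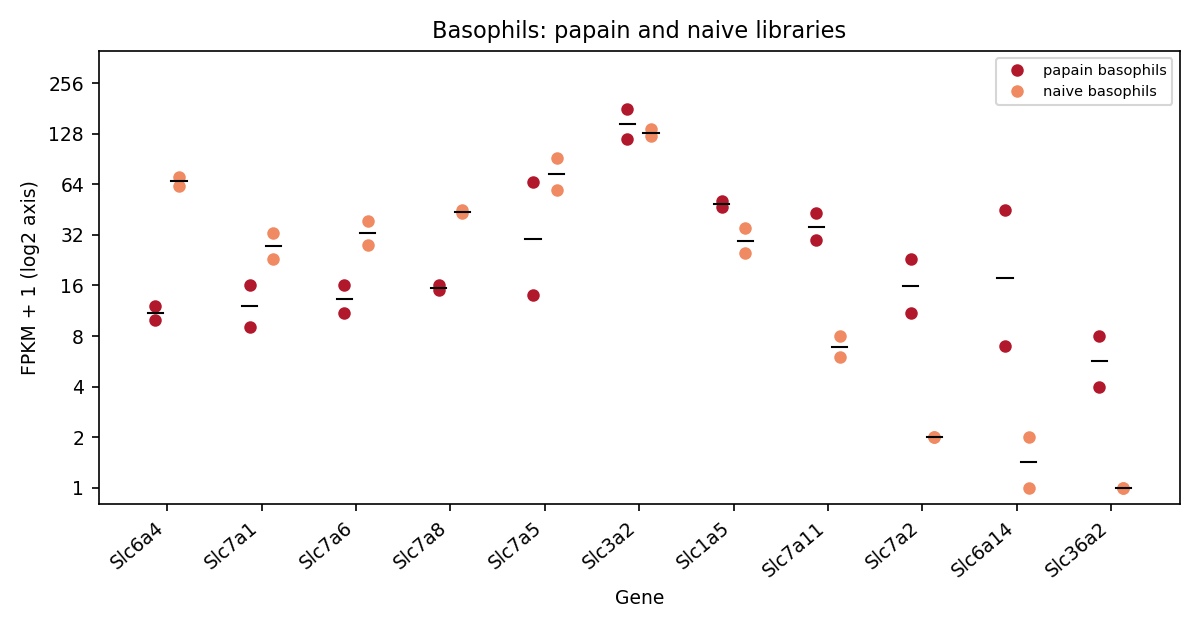
Levels of 11 members in papain and naive basophils, as FPKM + 1 on a log2 axis. Points are libraries (2 per state) and bars the mean of the log2 values; Slc6a4, Slc7a1, Slc7a6 and Slc7a8 lie lower and Slc7a11, Slc7a2, Slc6a14 and Slc36a2 higher in papain basophils, while Slc7a5 and Slc3a2 overlap.

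The direction of the calls depended on the scaling. Of all genes called in papain basophils, 85.1% were higher, but 65.5% with median-ratio scaling, 45.4% with quantile normalization and 72.7% after rescaling without small RNA genes; the members split 10 higher and 5 lower as reported, and 9 and 6, 6 and 8, and 7 and 5 under these. Fitted on the basophil libraries alone, 5 members were called, against 3.84% of all genes. The number of members called fell when any 1 library was left out, and so did the share of all genes called. Both fell most without naive library 2.

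In eosinophils of papain mice, changes were called mainly in the CD11c-positive gate. There 7 members rose and 1 fell relative to naive eosinophils, against 9.93% of all genes higher and 2.2% lower, and the median log2 difference was 0.30 for the members and 0.34 for all genes. In the CD11c-negative gate 1 member rose and none fell, against 1.87% and 0.372% of all genes, with a median of 0.21 for members and for all genes. The call there, Slc1a3, had 1 FPKM in both CD11c-negative libraries and 0 in naive ones. Fibroblast markers summed to 2500 and 2386 FPKM in the CD11c-positive gate and 1175 and 928 FPKM in the CD11c-negative gate, against 7 and 25 FPKM in naive eosinophils, with 8 and 7 of 8 higher. Epithelial markers summed to 10442 and 8741 FPKM in the CD11c-positive gate and 6909 and 9559 FPKM in the CD11c-negative gate, against 771 and 1821 FPKM in naive eosinophils, with 6 and 2 of 12 higher. Monocyte and macrophage markers summed to 2013 and 1866 FPKM in the CD11c-positive gate and 1034 and 697 FPKM in the CD11c-negative gate, against 868 and 1065 FPKM in naive eosinophils, with 5 and 0 of 11 higher. T cell markers summed to 95 and 106 FPKM in the CD11c-positive gate and 19 and 103 FPKM in the CD11c-negative gate, against 2 and 1 FPKM in naive eosinophils, with 2 and 0 of 8 higher. Natural helper cell markers summed to 176 and 191 FPKM in the CD11c-positive gate and 170 and 189 FPKM in the CD11c-negative gate, against 43 and 94 FPKM in naive eosinophils, with 3 and 1 of 12 higher. Their part in the values below was not tested.

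The CD98 heavy chain and light chain Slc7a6 rose in the CD11c-positive gate. Slc3a2 had 133 and 128 FPKM in CD11c-positive eosinophils and 69 and 79 FPKM in CD11c-negative eosinophils, against 43 and 65 FPKM in naive eosinophils. The CD11c-positive libraries lay above all others, 1.29 ± 0.28 over naive (adjusted p = 0.0227), while the CD11c-negative difference of 0.47 ± 0.28 did not pass (adjusted p = 0.521). Slc7a6 had 7 and 9 FPKM in CD11c-positive eosinophils and 4 and 5 FPKM in CD11c-negative eosinophils, against 1 and 2 FPKM in naive eosinophils. The 3 groups did not overlap, and the log2 difference from naive was 1.87 ± 0.29 for the CD11c-positive gate (adjusted p = 0.00581) and 1.16 ± 0.29 for the CD11c-negative gate (adjusted p = 0.0914). Slc7a8 had 176 and 171 FPKM in CD11c-positive eosinophils and 99 and 181 FPKM in CD11c-negative eosinophils, against 52 and 110 FPKM in naive eosinophils. It missed the threshold, at 1.19 ± 0.38 (adjusted p = 0.0723) and 0.81 ± 0.38 (adjusted p = 0.37), and the first passed with a filter of 5 FPKM in at least 2 libraries (adjusted p = 0.048). Slc7a11 had 100 and 94 FPKM in CD11c-positive eosinophils and 98 and 89 FPKM in CD11c-negative eosinophils, against 109 and 150 FPKM in naive eosinophils, and neither difference passed (adjusted p = 0.556 and 0.718). Slc7a5 stayed at 10 FPKM or less in all 6 eosinophil libraries.

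Among glutamine carriers, Slc1a5 and Slc38a5 rose. Slc1a5 had 33 and 43 FPKM in CD11c-positive eosinophils and 26 and 30 FPKM in CD11c-negative eosinophils, against 14 and 15 FPKM in naive eosinophils. Its log2 difference from naive was 1.32 ± 0.25 in the CD11c-positive gate (adjusted p = 0.013) and 0.90 ± 0.25 in the CD11c-negative gate (adjusted p = 0.123). Slc38a5 had 4 and 10 FPKM in CD11c-positive eosinophils and 1 and 2 FPKM in CD11c-negative eosinophils, and was listed at 0 in naive eosinophils; it rose in the CD11c-positive gate (adjusted p = 0.00206) and was the only member there whose call held when any 1 library was left out. Slc36a2 had 2 and 4 FPKM in CD11c-positive eosinophils and 2 and 1 FPKM in CD11c-negative eosinophils, and was listed at 0 in naive eosinophils, with a call in the CD11c-positive gate (adjusted p = 0.0111). Slc6a8 had 4 and 3 FPKM in CD11c-positive eosinophils, 3 and 2 FPKM in CD11c-negative eosinophils and 1 FPKM in both naive libraries (1.16 ± 0.27 for CD11c-positive over naive, adjusted p = 0.0264). Slc1a3 had 1 FPKM in both CD11c-positive libraries and 0 in naive ones (adjusted p = 0.0114).

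Slc6a4 fell in the CD11c-positive gate. It had 6 FPKM in both CD11c-positive libraries and 16 and 13 FPKM in CD11c-negative eosinophils, against 11 and 19 FPKM in naive eosinophils. The CD11c-positive libraries lay below the rest, -1.15 ± 0.26 from naive (adjusted p = 0.0263), while the CD11c-negative gate overlapped the naive libraries (-0.01 ± 0.26). Slc6a6 had 33 and 21 FPKM in CD11c-positive eosinophils and 46 FPKM in both CD11c-negative libraries, against 25 and 56 FPKM in naive eosinophils, all overlapping between papain and naive. Slc43a2, a carrier of branched-chain and other large amino acids, had 6 and 2 FPKM in CD11c-positive eosinophils and 8 and 9 FPKM in CD11c-negative eosinophils, against 7 and 10 FPKM in naive eosinophils. Its CD11c-positive difference of -1.03 ± 0.41 (adjusted p = 0.134) was called lower with median-ratio scaling or quantile normalization (adjusted p = 0.0419 and 0.0324).

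**Figure D4:**
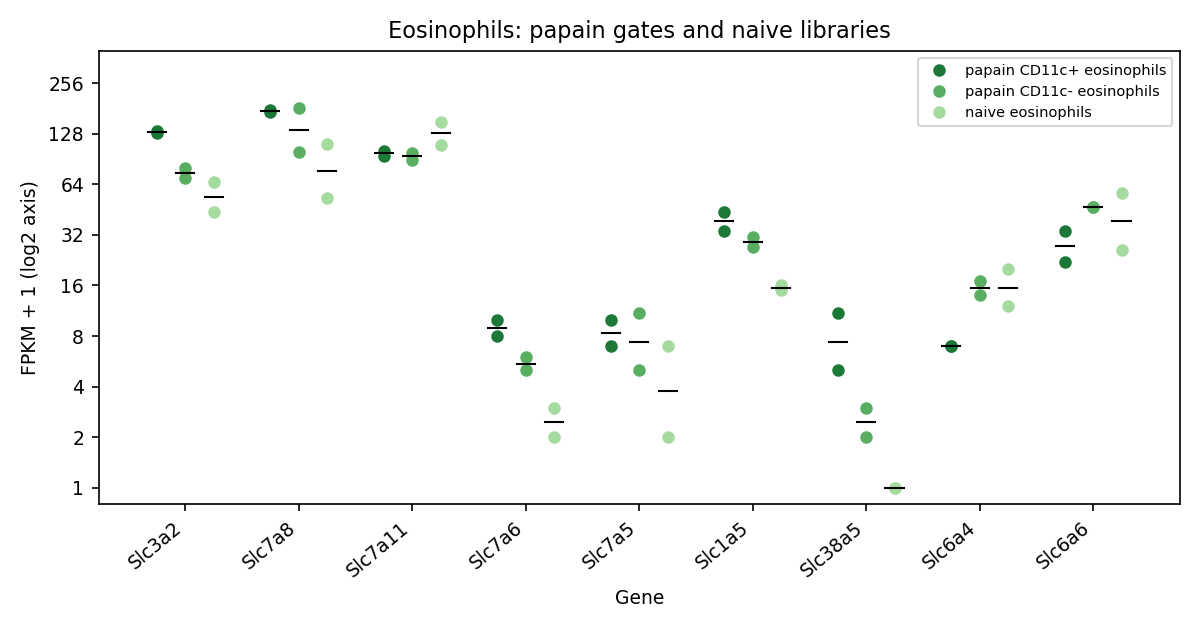
Levels of 9 members in the 2 papain gates and in naive eosinophils, as FPKM + 1 on a log2 axis. Points are libraries (2 per group) and bars the mean of the log2 values; in Slc3a2, Slc7a6, Slc1a5 and Slc38a5 the CD11c-positive points lie highest and the naive points lowest, and Slc6a4 is lowest in the CD11c-positive gate.

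Set directly against the CD11c-negative gate, the CD11c-positive gate had 0 members called by limma, where 0.0281% of all genes were higher and 0.0281% lower. An unadjusted p under 0.05 was given to 5 members. The share of all genes at that level was not counted, so nothing is read from the 5. The gates are therefore not shown to differ in any member. Of the 8 calls against naive, Slc36a2, Slc1a3 and Slc1a5 were lost without naive library 1 or 2 (adjusted p up to 0.0896), with CD11c-positive library 2 also deciding Slc36a2 and Slc1a5. Slc7a6 was lost without naive library 1 (adjusted p = 0.0536), Slc3a2 without naive library 1 or either CD11c-positive library (adjusted p up to 0.16), Slc6a4 without naive library 2 or either CD11c-positive library (adjusted p up to 0.126) and Slc6a8 when any of the 4 libraries was left out (adjusted p up to 0.136). Without either naive library or CD11c-positive library 2, fewer members and a smaller share of all genes were called. A fit of the compared groups alone called 3 members, where 8.95% of all genes were called. Of all genes called, 81.8% were higher, but 56.7%, 51.2% and 68.8% with median-ratio scaling, quantile normalization and rescaling without small RNA genes, where the members split 5 and 4, 5 and 3, and 5 and 1 in place of 7 and 1.

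In natural helper cells no member of 5 FPKM or more passed the test after papain. Here 0 members rose and 1 fell, against 0.54% of all genes higher and 0.245% lower. The 1 was Slc38a3, with 0 in both papain libraries against 1 FPKM in both naive libraries. Only naive natural helper cells brought it to the level for testing, so it had to differ and its call supports nothing. Limma gave 4 members an unadjusted p under 0.05, but the share of all genes at that level was not counted, so nothing is read from it. Slc43a3 had the largest difference among members of 5 FPKM or more, with 19 FPKM in both papain libraries, against 9 and 5 FPKM in naive natural helper cells. The groups did not overlap, but 1.37 ± 0.33 did not pass (adjusted p = 0.13). Slc1a5 had 61 and 66 FPKM in papain natural helper cells, against 56 and 35 FPKM in naive ones (0.51 ± 0.25, adjusted p = 0.516). Slc38a10 had 31 and 33 FPKM in papain natural helper cells, against 21 and 23 FPKM in naive ones (0.52 ± 0.17, adjusted p = 0.276). Slc7a6 had 12 and 14 FPKM in papain natural helper cells, against 8 and 7 FPKM in naive ones, and Slc7a1 had 17 and 13 FPKM, against 9 and 10 FPKM. These pairs did not overlap and did not pass (adjusted p = 0.397 and 0.536). Slc38a1 and Slc38a2 overlapped between the states.

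The single 3'UTRKO library of papain natural helper cells can be set against the 2 papain libraries only by assuming that it varies like the other groups. By limma 0 members were called, against 0.21% of all genes higher and 0.358% lower. Slc7a8 had 79 FPKM in the 3'UTRKO library, against 31 and 34 FPKM in papain natural helper cells (1.26 ± 0.46, adjusted p = 0.415). Slc43a3 had 8 FPKM in the 3'UTRKO library, against 19 FPKM in both papain libraries (-1.15 ± 0.40, adjusted p = 0.378). Slc6a13 had 6 FPKM in the 3'UTRKO library, against 1 FPKM in both papain libraries. When only these 3 libraries were fitted, 7 members were called, against 19.6% of all genes, and that fit rests on an arm of 1 library.

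The share of each light chain was taken in the summed FPKM of the 6 carriers that pair with Slc3a2 (Slc7a5, Slc7a6, Slc7a7, Slc7a8, Slc7a10 and Slc7a11). In papain basophils Slc7a11 made up 40.3% and 29.4% of the sum, against 3.89% and 3.73% in naive basophils. Slc7a5 made up 18.1% and 45.5% in papain basophils, against 50.6% and 43.3% in naive basophils. In eosinophils Slc7a8 was the leading light chain in both CD11c-positive libraries (59.5% and 61.1%) and both CD11c-negative libraries (47.6% and 63.3%). Slc7a11 led in naive ones (66.5% and 55.8%). In CD11c-negative library 1 the lead was a near tie, with Slc7a11 at 47.1%. Neither gene passed the test in either gate against naive eosinophils. Slc7a8 led in every natural helper cell library, with 77.5% in the 3'UTRKO library, 43.1% and 50.7% in papain and 69.6% and 50% in naive libraries. Summed light chains were 2.19 to 4.14 times the Slc3a2 level in eosinophils and 0.504 to 1.32 times in basophils and natural helper cells. Shares are of transcript levels and were not tested.

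**Figure D5:**
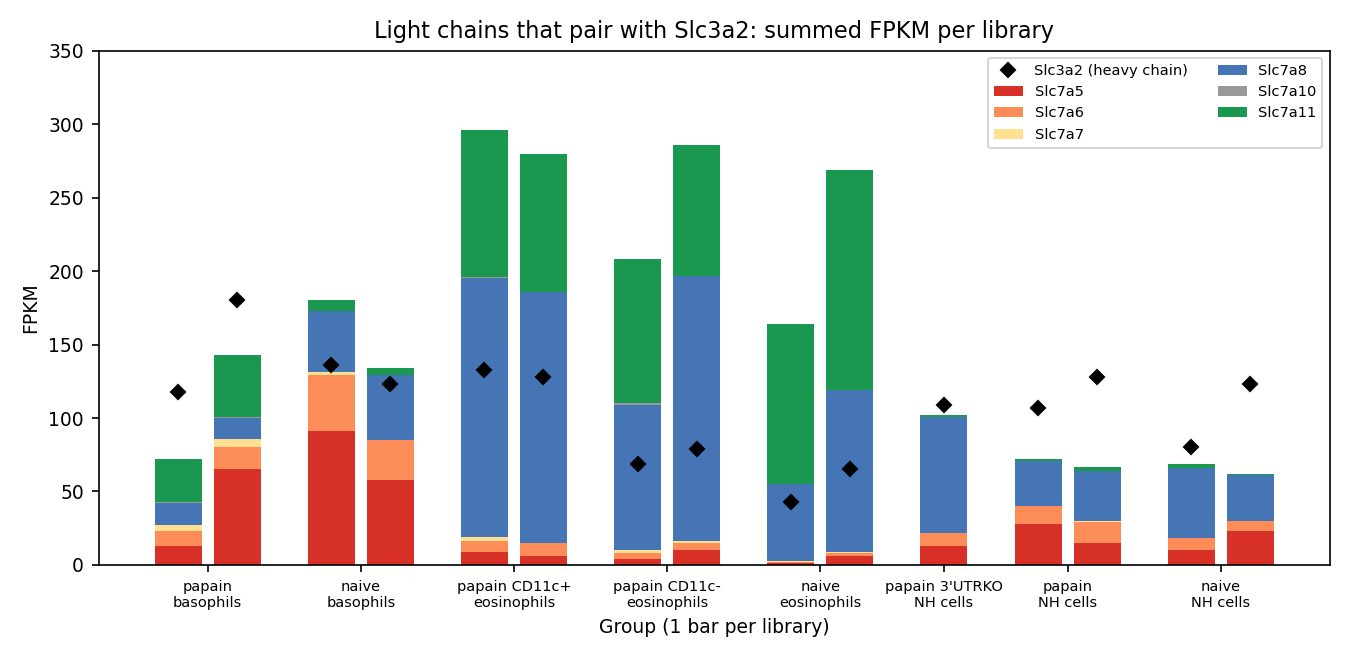
Summed FPKM of the 6 light chains that pair with Slc3a2, 1 bar per library, with Slc3a2 itself as a diamond. Bars of eosinophils are mostly Slc7a8 and Slc7a11 and stand above the diamonds, bars of natural helper cells are mostly Slc7a8 and below or near them, and naive basophil bars are led by Slc7a5.

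The papain response itself differed between cell types for some members. Comparing the basophil response with that of natural helper cells, 5 members were higher and 4 lower, against 4.64% and 2.12% of all genes. Slc7a11 rose more in basophils by 2.37 ± 0.58 (adjusted p = 0.0457), its natural helper cell libraries holding 1 to 3 FPKM in both states. Slc6a4 differed by -2.61 ± 0.37 (adjusted p = 0.00543), Slc7a6 by -2.04 ± 0.41 (adjusted p = 0.0228) and Slc7a1 by -1.80 ± 0.43 (adjusted p = 0.0447), all lower in the basophil response. Slc6a4 was listed at 0 in natural helper cells in both states and could not fall there, so its difference repeats the basophil fall. The others were low members, Slc36a2, Slc1a3, Slc38a4, Slc38a3 and Slc36a3, of which the last 3 reached the level for testing only through 1 group where they are high. For the CD11c-negative eosinophil response less that of basophils, 3 members were higher and 1 lower, against 0.751% and 1.61% of all genes. These were Slc6a4 (2.60 ± 0.37, adjusted p = 0.00953), Slc7a6 (2.48 ± 0.41, adjusted p = 0.0193), Slc36a3 and, in the other direction, Slc7a11 (-2.82 ± 0.58, adjusted p = 0.0425). For the CD11c-negative eosinophil response less that of natural helper cells, 1 member (Slc38a3) was higher and 0 lower, against 0.596% and 0.61% of all genes. In the fits without 1 library, the number of members called moved in the first 2 differences, and so did the share of all genes called. The Slc6a4 call in the first held in all 8. In the first Slc7a11 was called in 3 of 8, Slc7a6 in 3 of 8 and Slc7a1 in 1 of 8. In the second Slc6a4 was called in 6 of 8, Slc7a6 in 3 of 8 and Slc7a11 in 1 of 8.

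Other genes of amino acid handling were read from 5 lists. Of 30 tested enzymes of amino acid and polyamine metabolism, 9 rose and 0 fell in papain basophils, with a median log2 difference of 0.90 beside 0.50 for all genes, and 30% of the list called against 26% of all genes. Arg1, the arginase that turns arginine into ornithine, had 233 and 19 FPKM in papain basophils, against 3 and 0 FPKM in naive basophils (adjusted p = 0.00912). Its mitochondrial relative Arg2 had 18 and 54 FPKM in papain basophils, against 5 and 6 FPKM in naive basophils (adjusted p = 0.0182), and the polyamine enzyme Odc1 310 and 213 FPKM, against 76 and 34 FPKM (adjusted p = 0.00668). Of the papain basophil libraries, Arg1 was higher in library 1, which had the higher alveolar macrophage sum. That library also had the higher sums of fibroblast, T cell, mast cell and natural helper cell markers, and their part was not tested. In CD11c-positive eosinophils 4 of the 30 rose and 0 fell (13.3%, against 12.1% of all genes), among them Arg1 (25 and 57 FPKM in CD11c-positive eosinophils, listed at 0 in naive eosinophils, adjusted p = 0.0139) and Odc1 (251 and 277 FPKM in CD11c-positive eosinophils, against 36 and 48 FPKM in naive eosinophils, adjusted p = 0.00735). In natural helper cells 0 of the 30 were called after papain, against 0.786% of all genes. Arg1 had 297 and 319 FPKM in papain natural helper cells, against 133 and 90 FPKM in naive ones.

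Of 24 tested ATF4 response genes, 5 rose and 0 fell in papain basophils (median 0.61). In CD11c-positive eosinophils 1 rose (median 0.50), and 0 were called in natural helper cells (median 0.15). The medians over all genes were 0.50, 0.34 and 0.09 in that order. Nupr1, a stress-induced regulator, had 83 and 785 FPKM in papain basophils, against 31 and 6 FPKM in naive basophils (adjusted p = 0.0181), and the stress factor Atf3 had 82 and 168 FPKM, against 41 and 21 FPKM (adjusted p = 0.0178). Nupr1 was also the gene called in CD11c-positive eosinophils, with 62 and 75 FPKM, against 3 and 7 FPKM in naive eosinophils (adjusted p = 0.0474). Of 20 cytosolic aminoacyl-tRNA synthetases, 2 rose in papain basophils and 3 in CD11c-positive eosinophils, and 0 were called in natural helper cells after papain. Of 24 genes of amino acid sensing by mTORC1, 5 rose and 1 fell in papain basophils and 2 rose in CD11c-positive eosinophils; Rragc, a Rag GTPase that brings mTORC1 to lysosomes, averaged 39 FPKM in papain basophils, against 16 FPKM in naive basophils (adjusted p = 0.0086). Rheb, the small GTPase that activates mTORC1, averaged 94 FPKM in CD11c-positive eosinophils, against 35 FPKM in naive eosinophils (adjusted p = 0.00163). In the basophil comparison 20.8% of tested ATF4 genes, 10% of synthetases and 25% of mTORC1 genes were called, near or under the 26% of all genes. Beside the counts in CD11c-positive eosinophils and natural helper cells, 12.1% and 0.786% of all genes were called.

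Of 19 tested amino acid and peptide transporters outside the 7 families, 4 rose in papain basophils, 2 rose in papain natural helper cells and 2 fell in CD11c-positive eosinophils. These are 21.1%, 10.5% and 10.5% of the list, against 26%, 0.786% and 12.1% of all genes. Slc15a3, a peptide and histidine carrier of lysosomes, was called in both of the first. It had 69 and 87 FPKM in papain basophils, against 27 and 12 FPKM in naive basophils (2.04 ± 0.30, adjusted p = 0.00233), and 56 and 58 FPKM in papain natural helper cells, against 10 FPKM in both naive libraries (2.40 ± 0.30, adjusted p = 0.00736). In eosinophils it had 47 and 49 FPKM in the CD11c-positive gate and 21 and 22 FPKM in the CD11c-negative gate, against 37 and 36 FPKM in naive eosinophils. The CD11c-negative eosinophil response was lower than that of basophils by -2.78 ± 0.42 (adjusted p = 0.0125) and lower than that of natural helper cells by -3.14 ± 0.42 (adjusted p = 0.0168).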

How the data were processed

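The authors deposited a table of whole-number scores, with a row per gene symbol and a column per library (15). Per the file headers only samples are named; the scores were taken to be rounded FPKM because the submitters' processing notes list Cufflinks 1.3.0, beside TopHat 1.4.0 and mm9, and the values are in that range. The annotation and any filter are not given in the sources used here. RNA (poly(A)-selected, NEBNext Ultra) came from sorted cells, per the labels' protocols, with no strand marking stated. FPKM keep no read depth, and precision rests on the spread between libraries. Digit-grouping commas were removed from 1008 cells and 3 cells next to 0 were set to 0.

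The 14257 genes that reached 1 FPKM in 2 libraries were tested as log2(FPKM + 1) in limma 3.58.1 (R 4.3.3), with 1 coefficient for each of 8 groups, eBayes with trend, 7 residual degrees of freedom, and two-sided p-values adjusted by Benjamini-Hochberg over all of these genes (threshold 0.05). The pipeline was tested on simulated data. In the simulated basophil comparison 42 of 167 calls were false. For CD11c-positive over naive eosinophils 11 of 140 were false, and for naive natural helper cells over naive eosinophils 20 of 145. A call in these comparisons is therefore less certain than its adjusted p. A simulated log2 change of 1 was recovered in 18%, 10% and 14% of genes in that order, so most changes of that size were missed. The 2 libraries of a group differed by a median of 0.585 (absolute log2) in papain basophils and 0.138 in papain natural helper cells. Alternatives were 2 other pseudocounts, other filters, scaling by median ratio, by quantiles or without small RNA genes, a replicate block, fits of the compared groups alone and fits without 1 library.

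Members are named where a group mean reached 5 FPKM or the test was passed; from other lists, up to 3 called genes a comparison with a mean of 10 FPKM or more. The members, the lists and this rule were chosen with earlier results of these data known. Members sharing position with a gene on the other strand number 23 by the annotation at hand, 9 of them with a protein-coding partner. Tpsab1, Ly6g and Hbb-b2 were not used here.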

Additional observations from a re-analysis of the deposited data

Results flagged for a closer look

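These results were flagged because the papain response differed between cell types by a test of the difference itself, an interaction term in limma over all genes tested with Benjamini-Hochberg adjustment. For the basophil response less that of natural helper cells, the log2 difference was 2.37 for Slc7a11, 2.50 for Slc36a2, 1.29 for Slc1a3, 1.5 for Slc38a4 and 1.00 for Slc38a3, and -2.61 for Slc6a4, -2.04 for Slc7a6, -1.80 for Slc7a1 and -1 for Slc36a3. For the CD11c-negative eosinophil response less that of basophils it was 2.60 for Slc6a4, 2.48 for Slc7a6, 1.00 for Slc36a3 and -2.82 for Slc7a11, and these share the basophil libraries with the first set. For the CD11c-negative eosinophil response less that of natural helper cells it was 1.00 for Slc38a3. Values of 1.00 or -1 rest on a step between 0 and 1 FPKM in rounded values, and Slc36a3, Slc38a3 and Slc38a4 reached the level for testing only through 1 group where they are high. Slc6a4 was listed at 0 in natural helper cells in both states, so its value in the first set repeats the basophil fall. In the fits without 1 library, the first set was called in 8 of 8 for Slc6a4, 4 of 8 for Slc1a3, 3 of 8 for Slc7a11, Slc36a2 and Slc7a6, 2 of 8 for Slc38a4 and 1 of 8 for Slc7a1. The second was called in 6 of 8 for Slc6a4, 3 of 8 for Slc7a6, 1 of 8 for Slc7a11 and 4 of the 6 that tested Slc36a3, and the last in 1 of the 6 that tested Slc38a3. With the replicate number as a block, the calls lost in the first set were Slc7a11 (adjusted p = 0.069), Slc7a1 (0.0677) and Slc38a4 (0.0612), and in the second Slc7a11 (0.0758), by limma. Groups had at most 2 libraries, so no library could be checked as standing apart from its group.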

How the results depend on the processing

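With 2 libraries a group, each call rests on a spread shared over groups, and rounding hides changes of members under about 1 FPKM. None of the 69 called results changed sign in any alternative run, while 76 of 315 results not called did in some. Of the 69, 29 were called in every fit without 1 library that tested them. Slc36a3 and Slc38a3, among the 29, went untested in some. The 69 also include calls on Slc1a1 and Slc38a4. All of these members reached the level for testing only through 1 group where they are high, so their calls support no total given here. By setting, the calls kept were 66 with a pseudocount of 0.5, 61 with 5, 65 with no filter, 62 with median-ratio scaling, 53 with quantile normalization and 62 with the replicate block. Fitted on the compared groups alone, 29 were kept. Such fits called 5 members in place of 15 in papain basophils, where 3.84% of all genes were called in place of 26%. In natural helper cells they called 2 in place of 1 (4.49% of all genes in place of 0.786%). CD11c-negative eosinophils had 2 in place of 1 (9.53% in place of 2.24%) and CD11c-positive eosinophils 3 in place of 8 (8.95% in place of 12.1%). Naive basophils over eosinophils had 7 in place of 12 (13.5% in place of 14%). Naive basophils over natural helper cells had 5 in place of 8 (14.2% in place of 20.6%). The basophil less natural helper cell response had 5 in place of 9 (4.17% in place of 6.75%). The CD11c-negative eosinophil less natural helper cell response had 3 in place of 1 (6.3% in place of 1.21%). A filter of 5 FPKM in at least 2 libraries left fewer members and called 7 in papain basophils (30.7% of all genes tested). With it the basophil less natural helper cell response had 4 (6.7%). It called 0 in natural helper cells (0.379%), CD11c-negative eosinophils (4.02%) and the CD11c-negative eosinophil less natural helper cell response (1.03%). Quantile normalization and rescaling without small RNA genes gave 0 in these last 3 as well. The shares of all genes were 0.393% and 0.368%, 1.82% and 3.31%, and 0.533% and 0.683% in that order. In the basophil less natural helper cell response these 2 settings gave 5 and 4 (6.35% and 5.4%). CD11c-negative eosinophils had 3 with a pseudocount of 0.5 (2.89% of all genes), 0 with 5 (1.29%) and 0 with median-ratio scaling (2.51%). Their response less that of natural helper cells had 0 with median-ratio scaling (0.568%). The cause was not tested. Without 1 library the number called was 7 to 12 in papain basophils, 0 to 1 in natural helper cells, 0 in CD11c-negative and 2 to 8 in CD11c-positive eosinophils, 0 to 2 between the gates, 0 for 3'UTRKO, 6 to 9, 5 to 8 and 7 to 9 in the 3 naive comparisons, and 3 to 10, 0 to 6 and 0 to 1 for the differences of response. The correlation of same-numbered deviations was -0.15 to 0.12 over 21 pairs of groups, with 1 over 0.1. It cannot decide whether libraries were paired, since the labels do not say which came from the same mice. With the replicate block 14 members were called in papain basophils (23.7% of all genes) and 8 in CD11c-positive eosinophils (9.62%). In the 3 naive comparisons it called 11, 8 and 9 (12.3%, 18.6% and 26.4%). The first 2 differences of response had 6 and 3 (4.75% and 1.79%). Natural helper cells, CD11c-negative eosinophils and the last difference had 1 each (0.547%, 1.62% and 0.736%).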
